A study of Mus musculus with 46 samples.

Results

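Pancreatic islets labelled Tfam KO were compared with islets labelled Tfam control. The comparison took every islet library whose description carries one of these genotypes, which gave 14 libraries of the 46 in the series. Control islets gave 8 libraries, 5 from females and 3 from males, and KO islets gave 6, of which 4 were from females and 2 from males. The labels name the mouse as the species, the islet as the tissue, the genotype and the sex of each library. Strain, age, the targeted allele, the Cre driver and the number of mice behind a library are not given in the sources used here, so what the KO libraries model is limited to the word KO. All islets of both genotypes spent a night in culture before RNA was extracted. The title of the series names as its question how signals sent from mitochondria act on the identity and maturity of metabolic tissues.

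Tfam is the factor that packages mitochondrial DNA and helps to start its transcription, so cells that lose it lose the transcripts of the mitochondrial genome. That genome encodes core subunits of the respiratory chain together with the ribosomal and transfer RNAs that translate them, while all other mitochondrial proteins come from nuclear genes. Islets are clusters of hormone-secreting cells, mostly insulin-secreting beta cells in the mouse, whose secretion depends on mitochondrial ATP. Mitochondrial faults are known to be reported to the nucleus through the integrated stress response, in which translation of the transcription factor ATF4 rises.

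Total counts ran from 55223041 to 83342809 per library. The 2 insulin genes took 20.3 ± 2.38% (SD, n = 8) of all counts in control islets and 11.9 ± 1.05% (SD, n = 6) in KO islets, and the TMM scaling factors, which set libraries to a common bulk of genes, did not overlap between the genotypes (0.834 to 0.982 in control, 1.06 to 1.12 in KO). Without those factors the median log2 fold change of all genes moved from -0.01 to 0.20, so every change below is relative to the bulk of genes. On the first principal component, with 24.6% of the variance, all KO libraries lay on one side and all controls on the other. The second, with 13.8%, set control female replicates 3 and 4 apart from the other libraries. Levels are given as CPM, counts relative to the scaled library size, and in bulk islets fewer cells of a type and less RNA per cell cannot be told apart.

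Tfam itself was lower in each KO library. Its level (ENSMUSG00000003923, GRCm38 chromosome 10, 71225464 to 71238280, minus strand) had a lowest, median and highest value of 37.8, 39.2 and 44.7 CPM over the control libraries and of 16.02, 17.4 and 18.9 CPM over the KO libraries. The genotypes did not overlap, and KO islets retained 43.3% of the control level by the fit. The log2 fold change, in all that follows KO minus control, was -1.21 (SE 0.06, adjusted p 3.76e-10 by edgeR's quasi-likelihood test), and it was -1.20 in females and -1.21 in males.

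Of the 14 other genes tested within 1000 kb of the start of Tfam, 4 were higher, 2 were lower and 8 were not called, against 11.6% higher and 9.29% lower over all genes tested, and those named here were chosen after their values were seen. The long noncoding gene C730027H18Rik, which is listed under 2 identifiers, begins 43.4 kb past the end of Tfam on the same strand. Its longer model (71168737 to 71182040) lay between 0 and 0.124 CPM in control and between 1.34 and 2.28 CPM in KO libraries, which gave 5.08 on the log2 scale (SE 0.40, adjusted p 1.81e-07). Its shorter model had at most 2 counts in any control library and was at least 8.66-fold higher in KO, where the floor is 3 counts per library. Such bounds, here and below, set the mean of the higher genotype against the mean floor of the other. Single libraries can lie below them. On the opposite strand 1700113B09Rik, which overlaps it, had 0 counts in each control library, and was at least 2.37-fold higher in KO, with 0.0552 to 0.181 CPM. Reads of overlapping models cannot be assigned with certainty, since the sources used here do not say whether strand was used in counting. Further along the same strand Bicc1, an RNA-binding regulator of kidney tubules, fell by 0.43 on the log2 scale (SE 0.07). In the plot of the genes around Tfam these noncoding models are the large increases, and among the neighbours that were not called 4930533K18Rik stood at -1.32 (SE 0.68).

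**Figure D1:**
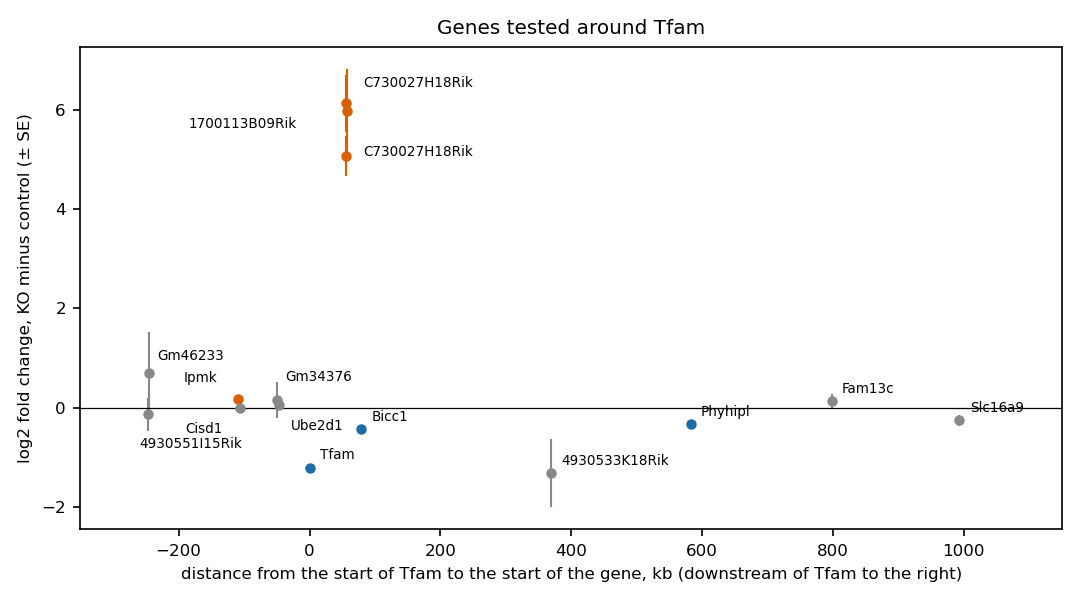
Log2 fold change, KO minus control, with its SE, for the 15 genes tested around Tfam, against the distance in kb from the start of Tfam to the start of each gene. The longer model of C730027H18Rik, 56.2 kb downstream, stands at 5.08 and Tfam at -1.21, and for its shorter model and 1700113B09Rik, under the floor of 3 counts in all controls, the plotted values come from the fit and only the lower bounds of 8.66-fold and 2.37-fold hold.

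Across the genome, KO islets showed many small changes and a smaller set of large ones, more of them increases. Of 19752 genes tested, 20.9% were called (adjusted p up to 0.05), 11.6% as higher and 9.29% as lower in KO. Changes of at least 2-fold were called in 3.22% of the genes tested, 454 higher (2.3%) and 183 lower (0.926%), and 177 genes rose at least 4-fold against 50 that fell as far. Levels did not overlap between the genotypes in 7.49% of the genes tested, made up of 4.83% higher in every KO library and 2.66% lower. By library size alone, a setting chosen after seeing the data, 91.0% of the calls were of higher genes, against 55.5% here. Among the 4119 called genes the sign was the same in females and males in 4117. These genes were called on the same libraries by a fit with 1 effect for both sexes, which selects for equal signs. The interaction of genotype with sex gave 0 calls (0% of genes tested) with edgeR's test and 1230 genes at an unadjusted p under 0.05, against 34 calls by the Wald test of DESeq2.

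**Figure D2:**
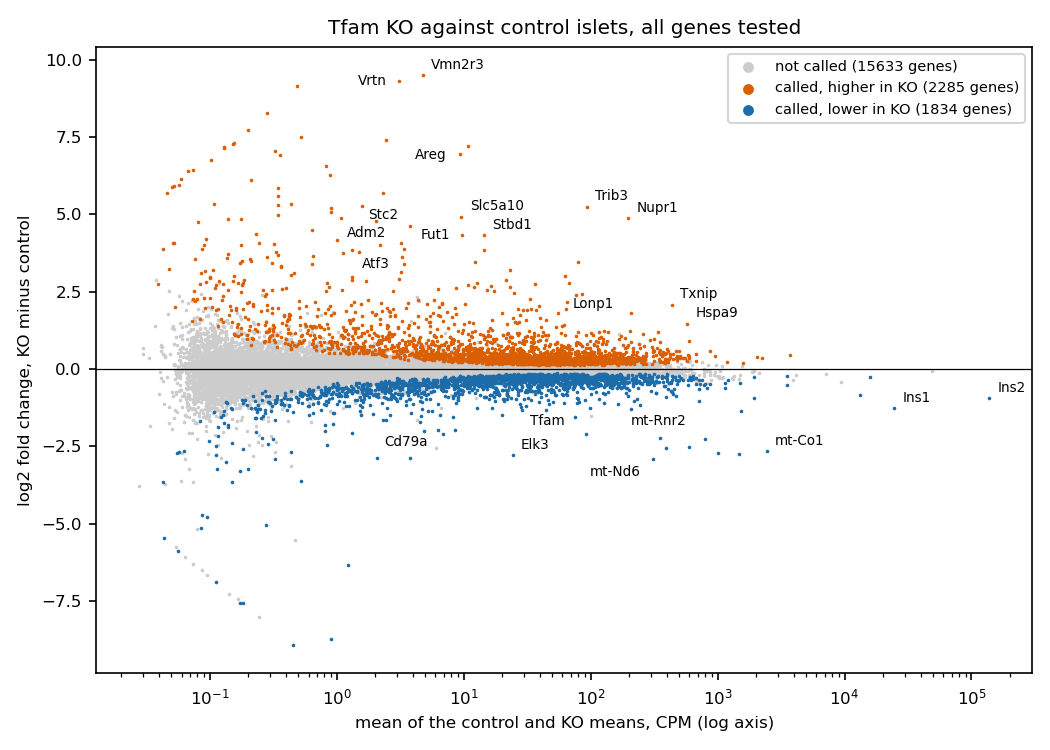
Log2 fold change, KO minus control, of the 19752 genes tested, against the mean of the 2 genotype means in CPM on a log axis, coloured by call. Among the 2285 higher genes Trib3 stands at 5.25 and Nupr1 at 4.89, and among the 1834 lower ones mt-Nd6 stands at -2.91, Elk3 at -2.78, mt-Co1 at -2.64 and Ins1 at -1.26, while the larger fitted values of genes near 0 in 1 genotype are not measured folds.

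The largest increases that separated the genotypes, among genes with at least 5 CPM in the higher one, belonged to 12 genes, of which 11 are given here, among them genes of stress signalling, sugar handling and secretion. Nupr1, a stress-induced chromatin protein, Trib3, a pseudokinase, and Atf3, a transcription factor, are known targets of the integrated stress response. Nupr1 had a lowest, median and highest value of 5.46, 11.54 and 24.7 CPM in control libraries and 223, 389 and 504 CPM in KO libraries, a log2 fold change of 4.89 (SE 0.29, adjusted p 6.65e-09). Trib3 ran from 1.57 through 4.37 to 11.1 CPM in control and from 148 through 182 to 201 CPM in KO, a change of 5.25 (SE 0.30). In both genes the lowest KO library was several times the highest control. Atf3 lay at 0.140 to 0.783 CPM in control and 3.94 to 8.61 CPM in KO, and rose by 3.88 (SE 0.29).

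Promoters of the genes that rose were searched for the letters TGATGNAA, the form of the composite element through which ATF4 is known to act with its partners. The window was 250 bases before to 50 after the start of transcription, from RefSeq on GRCm38.p6, read on both strands. Over all 32851 promoters in that set 3.97% held a match, and over the tested genes with a promoter 2.91% (386 of 13274) did. The share was 3.96% in genes called higher, 2.40% in genes called lower, 7.69% (24 of 312) in genes at least 2-fold higher, 9.32% (11 of 118) in genes at least 4-fold higher and 3.85% (3 of 78) in genes at least 2-fold lower. Among the 12 largest increases, 11 genes had a promoter in that set and 3 held a match, namely Atf3, Nupr1 and Trib3. The promoters of 4 matching genes, chosen after the matches were seen, are shown because these genes carry large increases described here, as the 200 bases before the start, with the match in capitals. They lie at chr7:126625471-126625670 (minus strand, Nupr1), chr1:191183334-191183533 (minus strand, Atf3), chr3:50443614-50443813 (minus strand, Slc7a11) and chr5:118169564-118169763 (plus strand, Hrk). A match describes letters only and says nothing of binding.
Nupr1: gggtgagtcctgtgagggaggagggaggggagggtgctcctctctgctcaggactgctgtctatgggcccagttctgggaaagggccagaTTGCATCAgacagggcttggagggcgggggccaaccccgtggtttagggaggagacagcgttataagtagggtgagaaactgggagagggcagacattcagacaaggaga
Atf3: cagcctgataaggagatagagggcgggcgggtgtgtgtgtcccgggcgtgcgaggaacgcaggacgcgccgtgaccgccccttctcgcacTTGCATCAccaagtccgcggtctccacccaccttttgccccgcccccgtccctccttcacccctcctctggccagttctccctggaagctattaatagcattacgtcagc
Slc7a11: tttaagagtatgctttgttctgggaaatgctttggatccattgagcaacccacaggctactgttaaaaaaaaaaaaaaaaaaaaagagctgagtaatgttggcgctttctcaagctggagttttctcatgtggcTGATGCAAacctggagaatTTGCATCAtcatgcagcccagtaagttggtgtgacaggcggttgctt
Hrk: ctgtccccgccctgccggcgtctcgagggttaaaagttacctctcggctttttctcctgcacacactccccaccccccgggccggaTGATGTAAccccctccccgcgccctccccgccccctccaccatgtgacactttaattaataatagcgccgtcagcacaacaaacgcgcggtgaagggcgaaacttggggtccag

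In the promoters of Nupr1 and Atf3 the match sits 110 bases before the start and reads on the reverse strand as TGATGCAA. Slc7a11, the cystine transporter, holds 2 matches, 66 and 47 bases before the start, in opposite directions. Hrk, a BH3-only activator of apoptosis, holds the variant TGATGTAA 114 bases before its start.

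Further genes of this group were nearly silent in control islets. The vomeronasal receptor gene Vmn2r3 and Vrtn, which is known for setting the number of vertebrae, had at most 4 counts in any control library. In KO libraries Vmn2r3 lay between 5.26 and 15.7 CPM and Vrtn between 4.83 and 7.30 CPM. Against the mean floor of 3 counts per library, under which both control means lay, the KO mean of Vmn2r3 was higher by at least 197-fold. For Vrtn the same lower bound was 129-fold. Vmn2r3 belongs to a family with near-identical copies, and reads may have been split among them.

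Secreted factors formed a further portion of the group. Areg, the EGF receptor ligand amphiregulin, had a lowest, median and highest value of 0, 0.104 and 0.290 CPM in control and 1.31, 7.76 and 45.5 CPM in KO. KO libraries all lay above the controls, as the choice of genes required, with the 2 males at 45.4 and 45.5 CPM and the females at 1.31 to 10.3 CPM. The change was 6.94 with an SE of 0.60. Within females it was 5.57 and within males 8.12 (interaction adjusted p 0.80). Stc2, a secreted glycoprotein hormone, rose from 0.158 to 0.435 CPM in control to 2.73 to 12.9 CPM in KO, a change of 4.64 (SE 0.33). Adm2, a peptide of the adrenomedullin family, rose from 0.0804 to 0.580 CPM to 4.83 to 7.79 CPM, a change of 4.08 (SE 0.27).

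Another 3 of these genes handle sugars. Slc5a10, a sodium-coupled transporter of mannose and fructose, lay at 0.429 to 0.905 CPM in control and 7.61 to 33.4 CPM in KO, and rose by 4.93 (SE 0.34). Fut1, a fucosyltransferase, lay at 0.429 to 1.68 and 12.99 to 24.2 CPM and rose by 4.35 (SE 0.24). Stbd1, which binds glycogen for delivery to lysosomes, lay at 0.815 to 1.99 and 19.1 to 32.7 CPM and rose by 4.32 (SE 0.21). That the genotypes did not overlap in these 3 was required by the choice of the genes.

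**Figure D3:**
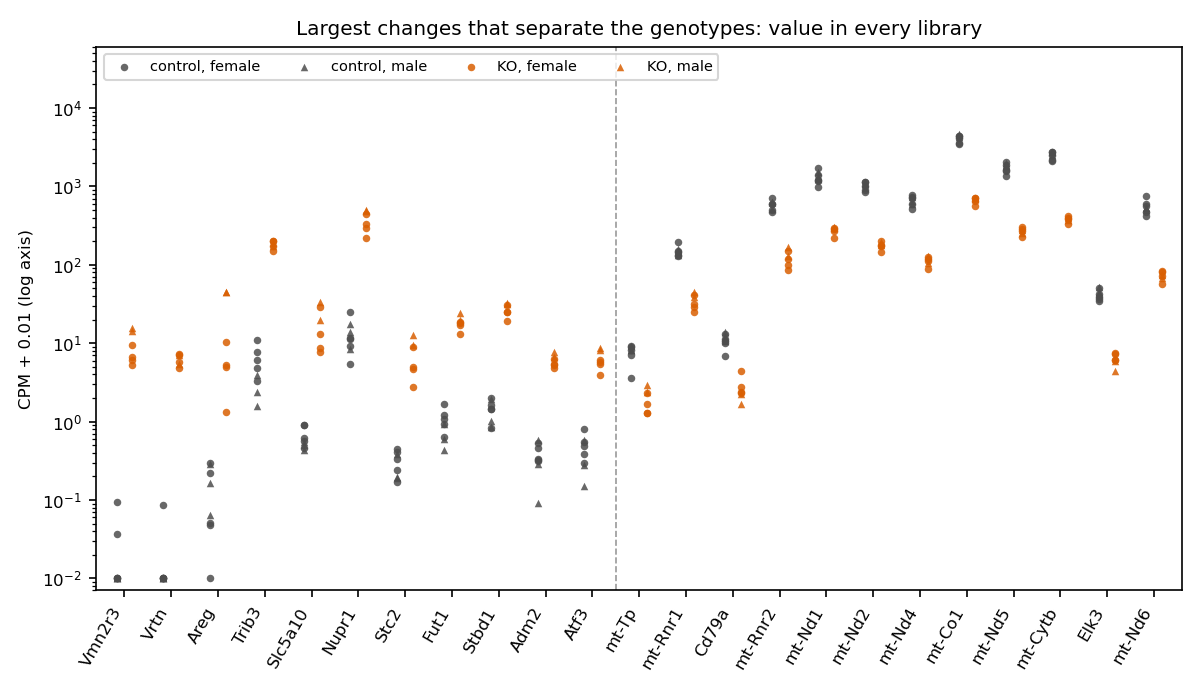
CPM plus 0.01 on a log axis for each library, for 11 of the 12 largest increases (left of the dashed line) and the 12 largest decreases that separate the genotypes, with females as circles and males as triangles. All KO libraries lie above all controls on the left and below them on the right, as the choice of genes required. Areg has the widest spread among KO libraries, from 1.31 to 45.5 CPM.

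Of the 12 largest decreases, 10 were transcripts of mitochondrial DNA. Of the 13 genes for the proteins it encodes 11 passed the filter on low counts, and all 11 fell (100% against 9.29% of genes tested), with a median of -2.64. mt-Co1, a catalytic subunit of cytochrome oxidase, had a lowest, median and highest value of 3517, 4343 and 4616 CPM in control and 563, 699.8 and 712 CPM in KO, and changed by -2.64 (SE 0.08, adjusted p 5.35e-12). mt-Cytb, of the cytochrome bc1 complex, changed by -2.74 (SE 0.09). Complex I subunits ran from -2.26 for mt-Nd1 (SE 0.12) to -2.91 for mt-Nd6 (SE 0.13), the subunit encoded on the other strand. Of the ribosomal RNAs, mt-Rnr1 fell by 2.08 (SE 0.13) and mt-Rnr2 by 2.22 (SE 0.14) on the log2 scale. All 5 transfer RNA genes tested fell, with a median of -2.71, and mt-Tp, the one among the largest separated decreases, changed by -2.002 (SE 0.21).

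mt-Co3 was listed at only 0.107 to 0.447 CPM in control and had at most 3 counts in each KO library, at least 7.39-fold lower. Near-identical nuclear copies of this stretch exist in the mouse genome, so counts there are uncertain, and the low level is not read as expression. Transcripts of all mitochondrial genes together took 1.20 ± 0.115% (SD, n = 8) of counts in control and 0.231 ± 0.0239% (SD, n = 6) in KO islets.

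The other 2 of the largest decreases were nuclear. Elk3, an ETS-domain repressor of serum response genes, had a lowest, median and highest value of 34.6, 42.5 and 51.6 CPM in control and 4.42, 6.11 and 7.50 CPM in KO. No other nuclear gene with at least 5 CPM and separated genotypes fell as far, and its change was -2.78 (SE 0.13, adjusted p 3.67e-10). Cd79a, the signalling chain of the B-cell receptor, lay at 6.87 to 13.9 CPM in control and 1.65 to 4.42 CPM in KO, a change of -2.09 (SE 0.20). Ms4a1, another defining B-cell gene, chosen after its values were seen, was scarce, with a median in control islets of 0.0461 CPM. All 9 lymphocyte markers tested had negative log2 fold changes, with a median of -1.69, though Cd79a was the only one called. Scarce markers that pass the filter only through high control libraries can hardly be higher in KO. Their shared sign is therefore no test of direction.

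Among genes changed at least 2-fold, those with the highest level per length, by the authors' TPM, were named next. Txnip, which is induced by glucose and inhibits thioredoxin, had a lowest, median and highest value of 106, 151 and 229 CPM in control and 471, 767 and 859 CPM in KO, a rise of 2.08 (SE 0.18, adjusted p 4.85e-07). Hspa9, the mitochondrial HSP70 that pulls proteins through the import channel, stood at 269, 301 and 359 CPM in control and at 751, 840.0 and 944 CPM in KO, a rise of 1.47 (SE 0.07). Atf5, a transcription factor of the mitochondrial unfolded protein response, rose by 1.14 (SE 0.11), and the noncoding gene 2410006H16Rik by 1.92 (SE 0.12). For these 4 genes the genotypes did not overlap.

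The decreases of that kind outside mitochondrial DNA were Ins1 and G6pc2. Ins1 fell from 27621 to 42767 CPM in control to 12086 to 16318 CPM in KO, a change of -1.26 (SE 0.10), and the other insulin gene Ins2, chosen after its values were seen, changed by -0.93 (SE 0.10). G6pc2, the islet glucose-6-phosphatase that opposes glucokinase, had a lowest, median and highest value of 915, 2482 and 3458 CPM in control and 668, 763 and 1024 CPM in KO. Its genotypes overlapped and its change was -1.37 with an SE of 0.19.

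A small set of genes passed from the floor of detection to a measurable level. With the floor at 3 counts per library, 21 genes lay at or under it in every control and above it in every KO library. Soat2, the acyl-CoA:cholesterol acyltransferase of liver and intestine, had the largest bound of them, at least 21.4-fold higher with 0.624 to 1.495 CPM in KO. The next largest bounds were those of the antisense gene Gm36607 (at least 20.1-fold higher), Gm31814, annotated within an intron (at least 14.7-fold), the intergenic noncoding gene Gm19619 (at least 13.5-fold) and the pseudogene Gm2559 (at least 11.8-fold). Gm19619 lies on chromosome 5 at 91257571 to 91283421 on the minus strand. Areg (91139599 to 91148432, plus strand) and Btc (91357261 to 91402994, minus strand) lie in the same region and also rose. Other genes of that region were not counted, so nothing is said of the region as a whole. In the opposite direction only mt-Co3 met the rule.

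The genes tested were then described in 52 lists of pathways, complexes and cell types, read against the shares over all genes of 11.6% higher and 9.29% lower and a median of -0.01. The plot of the lists orders the 42 that are not cell markers by their median. Shares far above those of all genes were seen among the higher members of cytosolic ribosomal proteins, p53 targets, and serine, folate and proline synthesis. Among the lower members they were seen for proteins encoded by mitochondrial DNA, insulin granule genes, receptors and cAMP signalling, and endoplasmic reticulum chaperones. By library size alone the number of higher members grew widely, for example to 69 of the 77 mitochondrial ribosomal proteins and to 27 of the 40 autophagy and lysosome genes. All counts and medians of lists are therefore relative to the bulk of genes.

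**Figure D4:**
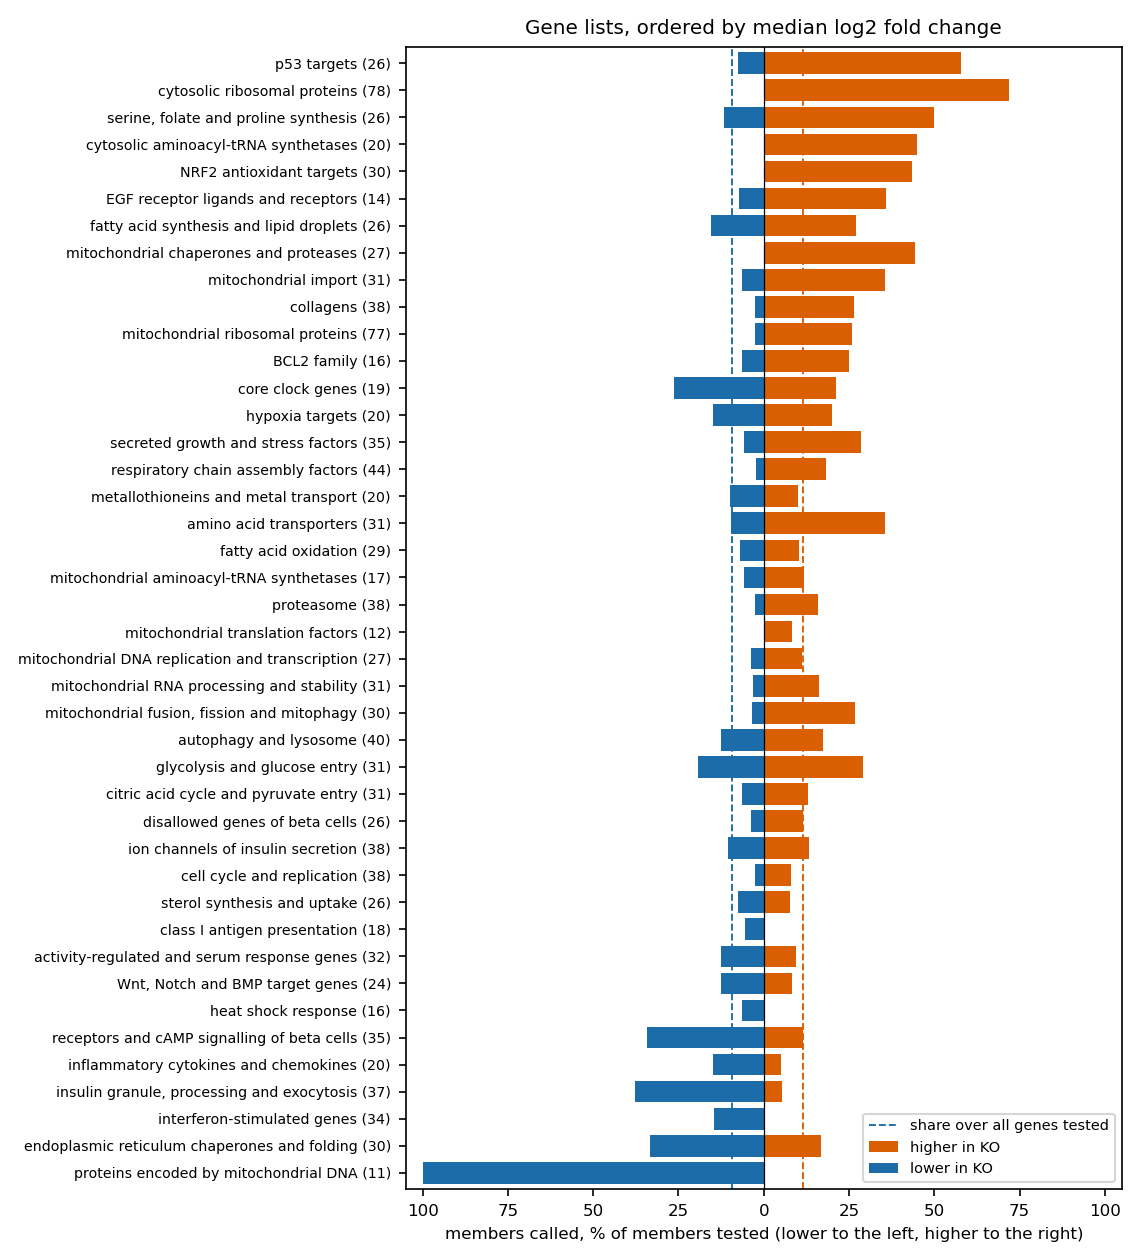
Share of the tested members of 42 gene lists called higher (right) or lower (left) in KO islets, in percent, ordered by the list's median log2 fold change, with the number of tested members in parentheses and dashed lines at the share over all genes. Cytosolic ribosomal proteins reach 71.8% higher and p53 targets 57.7%, while insulin granule genes reach 37.8% lower, though by library size alone the median of insulin granule genes is 0.03 rather than -0.18.

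Nuclear genes that maintain mitochondrial proteins moved upward in part. Of 27 mitochondrial chaperones and proteases, 12 rose and 0 fell, with a median of 0.17. Lonp1, the matrix protease that degrades damaged proteins and also unbound TFAM, had a lowest, median and highest value of 86.8, 90.6 and 99.2 CPM in control and 316, 325 and 333 CPM in KO. Its spread within each genotype was narrow, and its change of 1.83 (SE 0.05) had an adjusted p of 7.75e-13. Dnaja3, a cochaperone of Hspa9, rose by 0.81 (SE 0.06), and the disaggregase Clpb by 0.31 (SE 0.05).

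Of 31 import genes 11 rose and 2 fell, among them Gfer, the oxidase of the intermembrane space relay (0.49, SE 0.09), while Timm10b, a small translocase subunit, changed by -0.32 (SE 0.08), a call lost by library size alone. The count of risen import genes was 7 without control female 1, KO female 3, KO male 1 or KO male 2. Of 30 genes of fusion, fission and mitophagy 8 rose and 1 fell, and without KO female 4 the count of risen genes was 5. Mtfr1, which promotes fission, lay at 42.5 to 46.4 CPM in control and 57.0 to 62.0 CPM in KO (0.39, SE 0.04), and Opa1, the fusion GTPase of the inner membrane, rose by 0.30 (SE 0.07).

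Genes of the apparatus that reads mitochondrial DNA are set beside the shares over all genes tested, 11.6% higher and 9.29% lower. Of 27 genes of its replication and transcription 3 rose (11.1%) and Tfam alone fell (3.70%). Slc25a36, a carrier of pyrimidine nucleotides into mitochondria, lay at 79.2 to 95.8 CPM in control and 123 to 154 CPM in KO (0.66, SE 0.06), and the nuclease Mgme1 rose by 0.80 (SE 0.18). Of 31 genes of mitochondrial RNA processing 5 rose (16.1%), or 3 without KO male 2, and 1 fell (3.23%). The RNA-granule protein Grsf1 rose by 0.23 (SE 0.05). Mitochondrial aminoacyl-tRNA synthetases had 2 higher (11.8%) and 1 lower (5.88%) of 17, and mitochondrial translation factors 1 higher (8.33%) and 0 lower of 12.

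Mitochondrial ribosomal proteins had 20 higher and 2 lower members of 77, with a median of 0.12. Mrpl50 rose by 0.67 (SE 0.06), with no overlap between 30.5 to 36.0 CPM in control and 45.8 to 58.3 CPM in KO, whereas Mrps12 changed by -0.46 (SE 0.09). The number of risen members was 35 without control female 4, 12 without KO female 4 and 13 without KO male 2. Of 44 respiratory chain assembly factors 8 rose and 1 fell, and the same 3 libraries moved the number of risen genes to 14, 5 and 4. Surf1, which assembles cytochrome oxidase, rose by 0.35 (SE 0.06). Sdhaf4, an assembly factor of succinate dehydrogenase, changed by -0.40 (SE 0.10), a call lost by library size alone.

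In central carbon metabolism the isoforms of enzymes moved in both directions. Glycolysis and glucose entry had 9 higher and 6 lower members of 31, and the citric acid cycle with pyruvate entry had 4 higher and 2 lower of 31. Pfkfb3 and Pfkfb2 make the fructose 2,6-bisphosphate that drives phosphofructokinase, and they moved oppositely. Pfkfb3 had a lowest, median and highest value of 6.01, 9.29 and 11.3 CPM in control and 16.95, 21.9 and 25.2 CPM in KO (1.23, SE 0.12), and Pfkfb2 of 72.5, 85.5 and 99.4 and of 43.4, 46.6 and 51.1 CPM (-0.85, SE 0.08). Pklr, the pyruvate kinase of liver type, rose by 1.05 (SE 0.12). Pdk1, which switches off pyruvate dehydrogenase, lay at 27.2 to 46.9 CPM in control and 73.4 to 97.9 CPM in KO (1.18, SE 0.12), and Suclg2, the GTP-forming succinyl-CoA ligase subunit, rose by 0.65 (SE 0.07).

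Genes of amino acid supply rose widely. Of 26 genes of serine, folate and proline synthesis 13 rose and 3 fell, with a median of 0.29. Aldh1l2, the mitochondrial formyltetrahydrofolate dehydrogenase, had a lowest, median and highest value of 16.9, 26.5 and 35.3 CPM in control and 125, 145 and 173 CPM in KO (2.44, SE 0.14, adjusted p 5.76e-09). Psat1, of serine synthesis, rose by 1.94 (SE 0.15), the aspartate aminotransferase Got1 by 1.12 (SE 0.07) and Pycr1, of proline synthesis, by 1.11 (SE 0.12), and in each of these the genotypes were separate.

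Amino acid transporters had 11 higher and 3 lower members of 31. Slc7a11, whose promoter is shown above, lay at 0.161 to 0.799 CPM in control and 4.26 to 8.04 CPM in KO (3.64, SE 0.31). The arginine transporter Slc7a3 rose by 3.41 (SE 0.27), the glycine transporter Slc6a9 by 2.14 (SE 0.17) and Slc3a2, the heavy chain that pairs with Slc7a11 and related exchangers, by 0.68 (SE 0.08). Of 20 cytosolic aminoacyl-tRNA synthetases 9 rose and 0 fell, with a median of 0.26. Eprs, which charges glutamate and proline tRNAs, rose from 177 to 231 CPM in control to 424 to 534 CPM in KO (1.21, SE 0.07), while Sars and Yars rose by 0.73 (SE 0.07) and 0.55 (SE 0.10).

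Among lipid genes, fatty acid synthesis and lipid droplets had 7 higher (26.9%) and 4 lower (15.4%) members of 26, against 11.6% and 9.29% over all genes tested. The other lipid lists lay under those shares. Fatty acid oxidation had 3 higher (10.3%) and 2 lower (6.90%) of 29, and sterol synthesis and uptake 2 higher and 2 lower of 26 (7.69% each). G0s2, an inhibitor of the lipase ATGL, lay at 0.492 to 0.869 CPM in control and 1.298 to 2.03 CPM in KO (1.25, SE 0.16), and the phosphatidate phosphatase Lpin1 rose by 0.73 (SE 0.12). Hsd17b7, of cholesterol synthesis, rose by 0.95 (SE 0.15). Ppara, the receptor that drives fatty acid oxidation, changed by 1.26 (SE 0.27), whereas Hadh, an enzyme of that pathway and a brake on insulin secretion, changed by -0.48 (SE 0.08), with overlap of the genotypes in both.

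Stress programmes other than the integrated stress response did not move alike. Of 30 antioxidant targets of NRF2 13 rose and 0 fell, with a median of 0.26. The largest change among them, 3.64, is that of Slc7a11, which is also counted above among amino acid transporters. The 2 lists are therefore not separate. Hmox1, heme oxygenase, had a lowest, median and highest value of 2.56, 4.50 and 6.24 CPM in control and 20.4, 25.9 and 31.2 CPM in KO (2.54, SE 0.16). Gstm1, a glutathione transferase, rose by 0.85 (SE 0.10), the ferritin light chain Ftl1 by 0.61 (SE 0.07) and the malic enzyme Me1 by 0.57 (SE 0.07).

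Of 26 p53 targets 15 rose and 2 fell, with a median of 0.38. Sesn2, which restrains mTORC1 and is also a target of ATF4, stood at 52.4, 72.2 and 94.4 CPM in control and 145, 159 and 194 CPM in KO (1.22, SE 0.09). The nuclease Aen rose by 1.06 (SE 0.09) and Trp53inp1 by 1.16 (SE 0.13), while Btg2, an antiproliferative factor, changed by -0.61 (SE 0.06), from 110.4 to 135 CPM down to 72.5 to 84.7 CPM. Of 16 BCL2 family genes 4 rose and 1 fell. Hrk, whose promoter is shown above, lay at 0 to 0.181 CPM in control and 0.382 to 0.770 CPM in KO (3.43, SE 0.62), Bid rose by 0.73 (SE 0.14), and Bik, a BH3-only gene, changed by -0.64 (SE 0.17).

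Endoplasmic reticulum chaperones and folding genes split, with 5 higher and 10 lower of 30 and a median of -0.27. The sensor Ern1 rose from 182 to 254 CPM in control to 394 to 454 CPM in KO (0.99, SE 0.07), and Sel1l, of the degradation complex, rose by 0.81 (SE 0.06). Against this, Ero1lb, the oxidase that helps proinsulin to fold, fell from 2216 to 3481 CPM to 1172 to 1538 CPM (-0.94, SE 0.09), and the cochaperone Dnajb9 changed by -0.77 (SE 0.08). In none of the 4 did the genotypes overlap. By library size alone 8 members were higher and 7 lower, with a median of -0.06.

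Of 16 heat shock genes 0 rose and 1 fell, Dnajb4, by 0.49 on the log2 scale (SE 0.09), and the cytosolic chaperone Hsp90ab1 had a change of 0.11 (SE 0.23) that was not called. Hypoxia targets had 4 higher and 3 lower members of 20. Egln3, an oxygen sensor that HIF induces, rose by 2.16 (SE 0.21), and Ankrd37, also a HIF target, changed by -1.02 (SE 0.17). Metallothioneins and metal transport had 2 higher and 2 lower of 20, and the iron exporter Slc40a1 changed by -0.99 (SE 0.18), from 45.1 to 103 CPM in control to 24.8 to 43.1 CPM in KO. The zinc transporter Slc30a5 changed by -0.32 (SE 0.05), a call lost by library size alone.

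Few immune genes were called higher. Of 34 interferon-stimulated genes 0 rose and 5 fell (14.7%, against 9.29% over all genes tested), with a median of -0.24. The transcription factor Stat2 changed by -0.30 (SE 0.08), a call lost by library size alone (adjusted p 0.42). Ifit3, an interferon-induced antiviral protein, changed by -0.74 (SE 0.24), with a range of -0.97 to -0.54 over the alternatives. Its call was lost in 11 of 23 alternatives, among them library size alone and leaving out control female 2 or 3, control male 3, KO female 1, 2, 3 or 4 or KO male 2. The number of lower members was 0 by library size alone, where 3 rose. It was 1 to 3 without control female 2 or 3, control male 3, KO female 1, 2, 3 or 4 or KO male 2, while the median of the list stayed between -0.33 and -0.09 with 1 library left out and was -0.01 by library size alone. Class I antigen presentation had 0 higher and 1 lower (5.56%) of 18. Inflammatory cytokines and chemokines had 1 higher (5%) and 3 lower (15%) of 20. Cx3cl1, fractalkine, rose by 0.72 (SE 0.09), and Socs3, a brake on cytokine signalling, changed by -0.95 (SE 0.14).

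Beta-cell secretory genes outside the hormone itself fell in number. Of 37 genes of the insulin granule, its processing and its exocytosis 2 rose and 14 fell, with a median of -0.18, which by library size alone was 0.03 with 5 higher and 8 lower. Chga, chromogranin A, had a lowest, median and highest value of 15271, 16294 and 21361 CPM in control and 7811, 9525 and 11462 CPM in KO (-0.83, SE 0.10, adjusted p 1.24e-05). Syt13, an atypical synaptotagmin, fell from 1299 to 1505 CPM to 831 to 1002 CPM (-0.60, SE 0.06). Scg3, a granule secretogranin, and Sytl4, the granule protein granuphilin, changed by -0.46 (SE 0.06) and -0.63 (SE 0.09), again without overlap.

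Receptors and cAMP signalling had 4 higher and 12 lower members of 35, with a median of -0.13 that was 0.07 by library size alone, where 8 were higher and 6 lower. Gipr, the receptor of the incretin GIP, had a lowest, median and highest value of 99.1, 147 and 162 CPM in control and 45.6, 57.6 and 80.3 CPM in KO (-1.26, SE 0.13). Rapgef4, the cAMP sensor Epac2, changed by -0.55 (SE 0.05) and the galanin receptor Galr1 by -0.69 (SE 0.08). In the opposite direction, Gcgr, the glucagon receptor, lay at 13.6 to 28.2 CPM in control and 30.6 to 39.4 CPM in KO (0.86, SE 0.10).

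Ion channels of insulin secretion had 5 higher and 4 lower of 38, and the higher count was 3 without control female 1 or KO male 2. Trpm5, a calcium-activated cation channel, stood at 75.7, 99.7 and 149.9 CPM in control and 17.4, 37.4 and 81.0 CPM in KO (-1.54, SE 0.20), with overlap. The potassium channel Kcnk16 changed by -0.44 (SE 0.07) and the calcium pump Atp2a3 by -0.45 (SE 0.08), both without overlap. Of 26 genes that beta cells normally keep silent 3 rose (11.5%) and 1 fell (3.85%). Over all genes tested the shares were 11.6% and 9.29%, and the median of the 26 was 0.01. Catalase, Cat, rose by 0.73 (SE 0.13) and Garem1, an adaptor of receptor signalling, by 0.80 (SE 0.21).

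Signals that islet cells send out rose in part. Of 35 secreted growth and stress factors 10 rose and 2 fell. Angptl6, an angiopoietin-like factor, had a lowest, median and highest value of 3.50, 4.41 and 6.49 CPM in control and 31.7, 41.3 and 49.0 CPM in KO (3.21, SE 0.11, adjusted p 1.18e-11). Gdf15, a hormone of mitochondrial and other stress that lowers appetite, lay at 0.442 to 1.43 and 4.39 to 6.78 CPM (2.91, SE 0.22). Of 14 EGF receptor ligands and receptors 5 rose and 1 fell, and the risen count was 3 without KO female 3 or KO male 1. After Areg, Btc, betacellulin, rose by 1.38 (SE 0.22) and the receptor Egfr by 0.60 (SE 0.13), whereas Tgfa changed by -0.67 (SE 0.14).

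Among targets of Wnt, Notch and BMP signalling 2 rose and 3 fell of 24. Myc lay at 2.21 to 3.90 CPM in control and 8.06 to 16.003 CPM in KO (1.86, SE 0.18), and the Notch ligand Jag1 rose by 0.87 (SE 0.10), while the cyclin Ccnd1 changed by -0.50 (SE 0.10). Activity-regulated and serum response genes had 3 higher and 4 lower of 32, with Atf3 and Elk3 at the extremes. Cell cycle and replication genes had 3 higher and 1 lower of 38, and the inhibitor Cdkn2b rose by 0.71 (SE 0.12).

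Core clock genes moved in both directions, with 4 higher and 5 lower of 19. The nuclear receptor Rora, which activates Bmal1, rose by 0.49 (SE 0.07) without overlap, from 52.8 to 77.5 CPM in control to 81.9 to 103 CPM in KO. The clock-output factors Dbp and Tef changed by -1.05 (SE 0.27) and -0.79 (SE 0.19). Dbp had a lowest, median and highest value of 26.3, 68.9 and 107 CPM in control and 20.7, 30.4 and 45.3 CPM in KO. Its lowest control values were those of female 3 (26.3 CPM), male 1 (42.4 CPM) and female 4 (47.1 CPM), and female 3 lay below 5 of the 6 KO libraries. With female controls 3 and 4 left out, a setting chosen after seeing the data, 7 clock genes were higher and 8 lower. The lower count was 2 or 3 without control female 1 or 2, KO female 2, 3 or 4, or KO male 1 or 2. The labels give no time of day for any library, and the part of collection time in these values was not tested.

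Cytosolic ribosomal proteins were the list with the largest share of risen members, 56 of 78 (71.8%), with 0 lower and a median of 0.35. Rpl22 had a lowest, median and highest value of 94.6, 113 and 161 CPM in control and 176, 186 and 205 CPM in KO (0.69, SE 0.08). Rpl12 rose by 0.69 (SE 0.10) and Rpl4 by 0.44 (SE 0.07), also without overlap, and these 3 are the only members, 3 of 78, whose genotypes did not overlap, against 4.83% of all genes tested. Control female 4 held the highest control value of Rpl22 and Rpl4. The number of risen members was 74 without that library, 36 without KO male 1 and 75 without female controls 3 and 4 together.

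The proteasome had 6 higher and 1 lower of 38, or 13 higher without female controls 3 and 4, and its subunit Psmd9 rose by 0.84 (SE 0.07). Autophagy and lysosome genes had 7 higher and 5 lower of 40. The receptors Optn and Sqstm1, which tie ubiquitinated cargo to the autophagosome, rose by 0.80 (SE 0.08) and 0.59 (SE 0.08), Sqstm1 from 344 to 459 CPM in control to 566 to 635 CPM in KO. The lower count of this list was 3 without control female 5, control male 2, KO female 1, 2 or 3, or KO male 1 or 2.

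Of 38 collagens 10 rose and 1 fell. Col14a1, a collagen that decorates fibrils, had a lowest, median and highest value of 1.80, 3.62 and 4.01 CPM in control and 16.7, 20.3 and 26.0 CPM in KO (2.65, SE 0.15, adjusted p 4.82e-09). The fibrillar Col3a1 and Col5a1 changed by 1.04 (SE 0.18) and 1.18 (SE 0.23) and Col6a6 by -0.70 (SE 0.13), with overlap. Of the 14 markers of stellate cells, pericytes and fibroblasts, 2 rose, both of them collagens, and 2 fell, and their summed level was 178.5 to 246.8 CPM in control and 174.4 to 283.5 CPM in KO. The part of these cells in the collagen values was not tested.

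Markers of cells other than beta cells were read as summed levels in each library. The alpha-cell list summed to 25468 to 107201 CPM in control and 39481 to 54776 CPM in KO, with 1 of 13 higher and 0 lower, and glucagon, Gcg, had a change of -0.07 (SE 0.21) that was not called. Gcg stood at -0.49 in females against 0.67 in males, with an unadjusted p of 0.00338 and an adjusted p of 0.62 for the interaction by edgeR's test. In control islets the alpha-cell sum was 50756 to 107201 CPM in females and 25468 to 35243 CPM in males. Of 8 delta-cell markers 3 fell and 0 rose, among them somatostatin, Sst, at -0.53 (SE 0.16). In females Sst lay at 4094 to 7227 CPM in control and 2364 to 3437 CPM in KO. In males it lay at 2261 to 3266 CPM in control and 2495 to 3017 CPM in KO, which overlap. The call of Sst was lost in 7 of 23 alternatives, among them leaving out KO female 2, 3 or 4, no sex term, the Wald test and library size alone. PP and epsilon cell markers gave 0 calls of 4.

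The acinar list, of digestive enzymes from the surrounding exocrine tissue, summed to 1562 to 14983 CPM in control and 2301 to 26933 CPM in KO, with 0 higher and 1 lower of 24. KO male 1 held the highest value, and the chymotrypsin precursor Ctrb1 had a change of -0.31 (SE 0.56), not called. Of 13 duct markers 1 rose and 1 fell, with the keratin Krt7 at 0.35 (SE 0.07) and the adhesion molecule Epcam at -0.33 (SE 0.08), the latter a call lost by library size alone. Macrophage markers had 1 higher and 0 lower of 14, with Cd68 at 0.91 (SE 0.21) and the complement gene C1qa at -0.04 (SE 0.13), not called. Endothelial markers gave 0 calls of 14, the VEGF receptor Kdr standing at -0.05 (SE 0.06). Schwann cell and neuron markers had 3 higher and 1 lower of 12, with Mbp, myelin basic protein, at 0.53 (SE 0.09).

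Lymphocyte markers summed to 13.5 to 48.9 CPM in control and 3.76 to 7.73 CPM in KO. All 9 tested members had negative log2 fold changes, with a median of -1.69, and Cd79a was the only one called. Only 7 members passed the filter without control females 3 and 4 together. Members that pass only through high control libraries can hardly be higher in KO, so the shared sign is no test of direction. Without Cd79a the sum was 2.05 to 38.1 CPM in control and 1.74 to 3.32 CPM in KO, which overlap. Ighm, the heavy chain of IgM, reached 31.8 CPM in control male 1 against a control median of 2.86 CPM, and was not called at -1.64 (SE 0.62). The part of B cells in the fall of Cd79a was not tested.

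**Figure D5:**
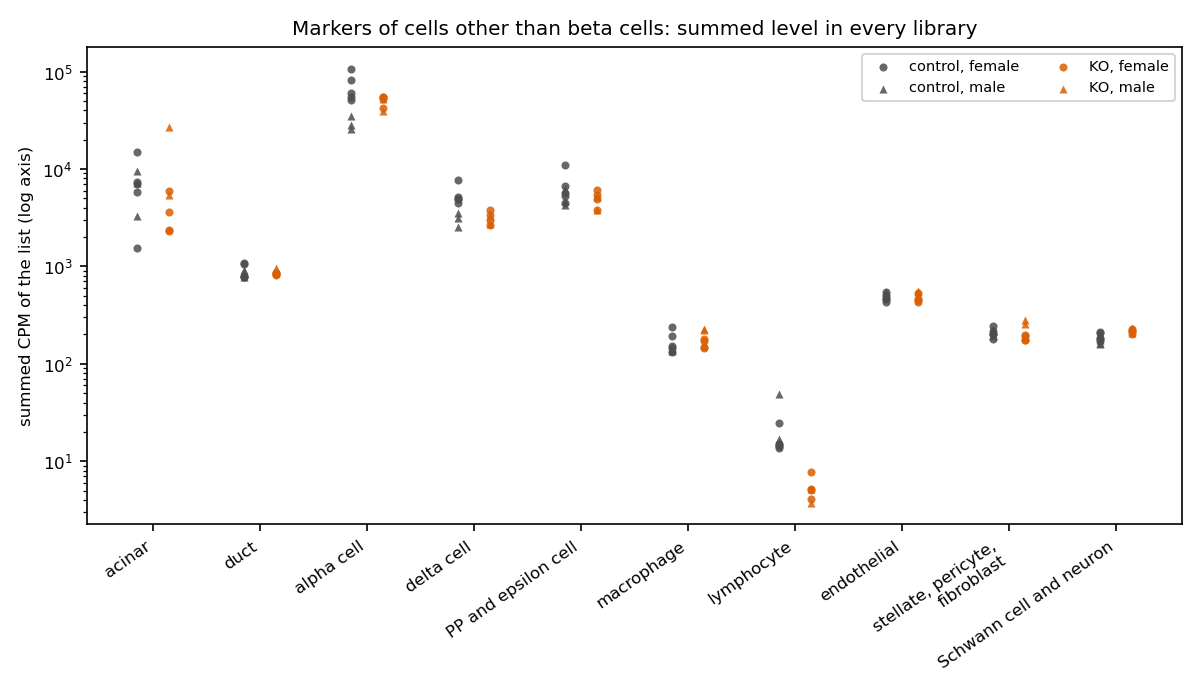
Summed CPM of the tested members of 10 marker lists on a log axis, for each control and KO library, with females as circles and males as triangles. The acinar list spreads from 1562 to 26933 CPM over libraries of both genotypes, and the lymphocyte list, at 13.5 to 48.9 CPM in control and 3.76 to 7.73 CPM in KO, overlaps once Cd79a is left out (2.05 to 38.1 and 1.74 to 3.32 CPM).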

How the data were processed

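RNA was sequenced as paired ends of 151 bases, per the labels' protocols, from islets of 14 libraries in 2 genotypes and both sexes. The authors deposited for each library a table of 55487 genes with whole-number counts, TPM and CPM, per the file headers. The submitters' processing notes name STAR 2.6.1b, RSEM 1.3.1, featureCounts, DESeq2, FastQC and MultiQC and the build GRCm38, without saying which tool made which column or whether strand was used. The deposited TPM, scaled per transcript length by the authors, served only to choose genes of high level.

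Counts were fitted with edgeR 4.0.16 (R 4.3.3): genes with low counts were filtered by genotype and sex, libraries scaled by TMM, and genotype tested by quasi-likelihood with sex as a covariate. P-values were adjusted by Benjamini-Hochberg over all 19752 genes, calls were made at 0.05, and the SE is the fold change over the root of F. A second model tested the interaction with sex. Titles call the libraries biological replicates but do not tie them to single animals, so p-values measure the spread between these samples. Symbols come from the deposited files, and 114 symbols stand at more than 1 identifier. Positions, strands and gene types come from GENCODE M21 (55227 identifiers matched).

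Named genes were Tfam, the 12 largest separated changes per direction with at least 5 CPM in the higher genotype, the 6 per direction changed at least 2-fold with the highest TPM, up to 4 members with the smallest adjusted p for each of 52 lists (the 2 most highly expressed where fewer were called), and 5 genes per direction at or under 3 counts in every library of 1 genotype. Not every gene this rule admits is printed, and some are not reported here. The comparison and lists were chosen with earlier results of these data known. Alternatives were size factors of the DESeq2 type (RLE) computed by edgeR, the Wald test of DESeq2 1.42.0, other filters and each library left out. Further ones were the replicate number as a block, a score of acinar genes as a covariate and no sex term. Chosen after seeing the data were library size alone and control females 3 and 4 left out together. The scripts were tested on simulated data. Libraries of the other tissues and genotypes were not used here.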

Additional observations from a re-analysis of the deposited data

Results flagged for a closer look

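In 27 of 289 groups of libraries, taken gene by gene, the highest or lowest library stood farther from its nearest neighbour than Dixon's 95% limit allows, where chance flags about 5%. Control female 4 accounted for 12 of the 27 and control female 3 for 4. Values are in CPM, followed by the nearest other library of the same genotype where it is not near 0.

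Control female 4 was highest for Chga (21361 against 17419), Rpl4 (1016 against 859), Ftl1 (338 against 291), Epcam (259 against 205), mt-Rnr1 (195 against 158), Rpl22 (161 against 121), Tfam (44.7 against 40.5) and Angptl6 (6.49 against 4.72). It was lowest for Opa1, at 67.5 against 82.3. It also held the highest of the near-zero control values of Vmn2r3 (0.0829), of the shorter model of C730027H18Rik (0.0414) and of Gm31814 (0.0414).

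Control female 3 was highest for Cd68 (4.81 against 2.88) and lowest for mt-Tp (3.56 against 7.03), and held the highest near-zero values of Vrtn (0.0757) and Soat2 (0.0378). Control male 1 was highest for Mrps12 (56.0 against 41.4), Aen (31.0 against 22.3) and Ighm (31.8 against 8.21). Control female 1 was highest for Slc7a3 (0.960 against 0.631) and Hrk (0.181 against 0.0840), and control male 3 for Gm19619 at 0.0280.

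Among KO libraries, female 2 was highest for C1qa (102 against 78.0) and lowest for mt-Nd1 (217 against 269). KO male 1 was highest for Ctrb1 (4596 against 982) and Socs3 (9.41 against 5.63), and KO female 3 was lowest for Sdhaf4 (9.29 against 10.02). Among the 146 genes examined by name the smallest adjusted p of the interaction with sex was 0.62.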

How the results depend on the processing

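Against 4119 called genes, the count was 4139 with RLE size factors in edgeR, 3669 without a filter and 4087 with at least 10 counts in every library. It was 4898 with the Wald test, 4303 with an acinar score and 3823 without a sex term. It was 3096 to 4995 when 1 library was left out, lowest without KO male 2 and highest without control female 4. By library size alone it was 6825, of which 2894 were genes of the 4119, with 6208 higher and 617 lower, and the median of all genes was then 0.20. Without control females 3 and 4 together it was 5775. The interaction with sex gave 0 calls in the main model, 30 without a filter, 34 with the Wald test and 0 to 1 with 1 library left out; the cause of these differences was not tested. Same-numbered libraries share a number and nothing else in the labels, and their deviations from the group mean correlated at -0.10 to 0.21 over 6 pairs. Control male 1 correlated with KO male 1 at 0.21 and with KO male 2 at -0.21, since deviations of 2 libraries from their mean mirror each other. These values therefore cannot decide whether the numbers pair the libraries. With the replicate number as a block 3230 genes and 36 interactions were called, the calls of Sst and Ifit3 were lost, and 37 cytosolic ribosomal proteins, 4 import genes and 23 immunoglobulin genes were called in the direction of the main model.

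Of 3343 values for 146 named genes under the alternatives, 3318 kept their direction and side of the threshold, 23 lost the call, 2 gained one and 0 reversed. The lost calls belonged to Sst, Ifit3, Stat2, Epcam, Timm10b, Sdhaf4 and Slc30a5, and Ighm gained its call without a filter and without a sex term. Counts of called members of a list are less stable. Leaving out 1 library moved 31 of 57 counts of 1 to 4 calls, and 11 of 29 counts of 5 or more, by over 1.5 times. The floor of 3 counts stood on average at 0.0484 CPM in control and 0.0425 CPM in KO libraries, and levels under it cannot be told from 0.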

Other observations

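Genes other than protein-coding ones were called lower more often than higher, relative to the bulk of genes. Of 15324 protein-coding genes tested 13.8% were higher and 9.78% lower. Of 4397 genes of other types 3.93% were higher and 7.62% lower. Of 967 antisense genes 2.69% were higher and 8.69% lower, with a median of -0.18, and of 129 genes read from bidirectional promoters 3 were higher and 19 lower. By the sources used here it is not known whether counting used strand, so reads of antisense genes and of their partners cannot be told apart.

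Of 49 immunoglobulin genes that passed the filter, 11 were lower in KO islets and 0 higher, against 9.29% lower and 11.6% higher over all genes tested. The count was 1 to 3 without control female 3, control male 1 or any of the 6 KO libraries, 17 without control female 1 and 19 without control female 4. It was 24 without a filter on low counts, 19 by library size alone, 5 with the acinar score, 4 with the Wald test and 3 without control females 3 and 4 together. With at least 10 counts in every library 1 gene was tested and 0 called. Only 25 genes passed the filter without control female 3, and 37 without control male 1. Genes that pass only through high control libraries can hardly be called higher, so the count is no test of direction.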
